A study of Homo sapiens with 19 samples.

Results

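The genes described here are GJA1, ANXA1, CDH19, ACSM3, CADM1, AZGP1, CD99L2, ASAH2, BEX1 and BEX3. They are 10 of 34825 gene symbols in the deposited tables, and they were selected on their normalized counts, which were higher in HepG2 cells given EPZ-6438 than in cells given DMSO when both carried a control siRNA. HepG2 is an established human liver cancer cell line, and its stranded mRNA libraries came from 2 experiments. In the drug experiment the cells received 1 µM EPZ-6438 or DMSO from 3 days before transfection with 50 nM siRNA and were harvested 72 h after transfection. The control siRNA, NTG, was combined with DMSO in 2 libraries and with EPZ-6438 in 3, and siMCRS1 was combined with DMSO in 3 libraries and with EPZ-6438 in 2. In the INO80 experiment, without drug, cells received 50 nM of NTG, siINO80#1 or siINO80#2 (3 libraries each) and were harvested after the same 72 h. EPZ-6438 was used at 1 dose and MCRS1 was targeted with 1 siRNA, and no source used here says whether the libraries of a group came from separate cultures, so p-values measure the spread between these libraries.

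EPZ-6438 inhibits EZH2, the catalytic subunit of Polycomb repressive complex 2 (PRC2), which methylates lysine 27 of histone H3. That methylation marks genes kept silent, and it is diluted as cells divide once the enzyme is blocked, which is why cells are usually exposed for days before expression is measured. MCRS1 and INO80 are subunits of the INO80 chromatin remodeler, which moves nucleosomes and exchanges histone variants, and MCRS1 is also found in a histone acetyltransferase complex. The histone mark was not measured in these libraries.

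The 10 genes have different roles. GJA1 encodes a connexin that forms gap junction channels between neighbouring cells, CDH19 is a cadherin of the type II group, CADM1 is an adhesion molecule of the immunoglobulin superfamily, and CD99L2 is a membrane protein related to CD99. ACSM3 is a mitochondrial enzyme that activates medium-chain fatty acids, ASAH2 is the neutral ceramidase that cleaves ceramide, and AZGP1 is a secreted glycoprotein with an MHC class I-like fold that has been linked to lipid mobilization. ANXA1 is a calcium-dependent phospholipid-binding protein known for dampening inflammation, and BEX1 and BEX3 are small proteins of a brain-expressed family encoded on the X chromosome.

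Of the 10 genes, 8 had an entry in the RefSeq promoter windows (250 bases before to 50 after an annotated start, GRCh38.p14), while ACSM3 and CADM1 were not analysed there. The windows are shown because their CpG content differed widely, and CpG-rich sequence is where PRC2 is best known to bind. A pair of windows with few CpGs (GJA1 and ANXA1) and a pair with more (CD99L2 and BEX1) are printed 5′ to 3′ on the gene's strand, with each CG in capitals. Of these, BEX1 lay between the quartiles of all windows. They lie at chr6:121435396-121435695 (plus strand) for GJA1, chr9:73151615-73151914 (plus strand) for ANXA1, chrX:150898619-150898918 (minus strand) for CD99L2 and chrX:103064122-103064421 (minus strand) for BEX1.
GJA1: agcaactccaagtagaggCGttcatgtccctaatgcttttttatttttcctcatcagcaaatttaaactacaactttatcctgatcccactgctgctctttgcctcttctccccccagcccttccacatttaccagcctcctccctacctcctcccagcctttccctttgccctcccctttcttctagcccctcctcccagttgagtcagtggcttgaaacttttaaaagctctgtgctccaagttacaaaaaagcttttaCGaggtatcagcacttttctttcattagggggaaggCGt
ANXA1: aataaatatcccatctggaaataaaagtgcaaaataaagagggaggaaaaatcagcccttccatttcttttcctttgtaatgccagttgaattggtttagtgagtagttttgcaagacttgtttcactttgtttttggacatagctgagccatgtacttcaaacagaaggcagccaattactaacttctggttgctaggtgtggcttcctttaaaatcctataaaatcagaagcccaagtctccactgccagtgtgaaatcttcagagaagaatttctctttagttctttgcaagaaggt
CD99L2: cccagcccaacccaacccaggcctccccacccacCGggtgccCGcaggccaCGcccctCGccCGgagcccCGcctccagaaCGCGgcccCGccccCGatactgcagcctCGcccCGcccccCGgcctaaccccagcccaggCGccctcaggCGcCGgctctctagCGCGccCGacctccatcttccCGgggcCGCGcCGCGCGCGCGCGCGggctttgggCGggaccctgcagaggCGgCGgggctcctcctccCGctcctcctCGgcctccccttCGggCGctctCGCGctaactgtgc
BEX1: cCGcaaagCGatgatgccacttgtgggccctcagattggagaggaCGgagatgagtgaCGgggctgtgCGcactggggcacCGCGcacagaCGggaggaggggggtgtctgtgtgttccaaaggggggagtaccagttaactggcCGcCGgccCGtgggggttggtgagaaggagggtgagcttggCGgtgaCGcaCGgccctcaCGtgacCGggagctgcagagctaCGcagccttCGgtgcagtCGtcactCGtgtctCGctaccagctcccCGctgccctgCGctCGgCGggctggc

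The ANXA1 window held 0 CG dinucleotides, those of ASAH2 and AZGP1 held 1 each, that of GJA1 held 3 and that of CDH19 held 5. BEX1 had 25 and CD99L2 had 38. BEX3 has 3 annotated starts, whose windows held 7, 23 and 32. Over all 35116 windows in the table the median was 14, with quartiles of 4 and 28. Thus 4 of the 8 genes (ANXA1, ASAH2, AZGP1 and GJA1) were under the lower quartile of all promoters, and CD99L2 and 1 of the 3 windows of BEX3 were above the upper one. The share of G and C was 37.7% in the ANXA1 window and 78.7% in that of CD99L2, against a median of 58.7% over all windows.

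Short motifs were searched on both strands. TATAAA was in 11.5% of all windows and, among these genes, in that of ANXA1 alone. GGGCGG was in 45.0% of all windows, with 3 matches in that of CD99L2 and matches in 2 of the 3 BEX3 windows. CCAAT, found in 34.6% of all windows, was in those of ANXA1, AZGP1, BEX1 and 2 of the 3 of BEX3. TGANTCA, found in 7.71%, was in the windows of GJA1 and ASAH2. None of these motifs contains another, a match is a description and not a binding site, and no single motif was in more than 4 of the 8 genes.

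**Figure D1:**
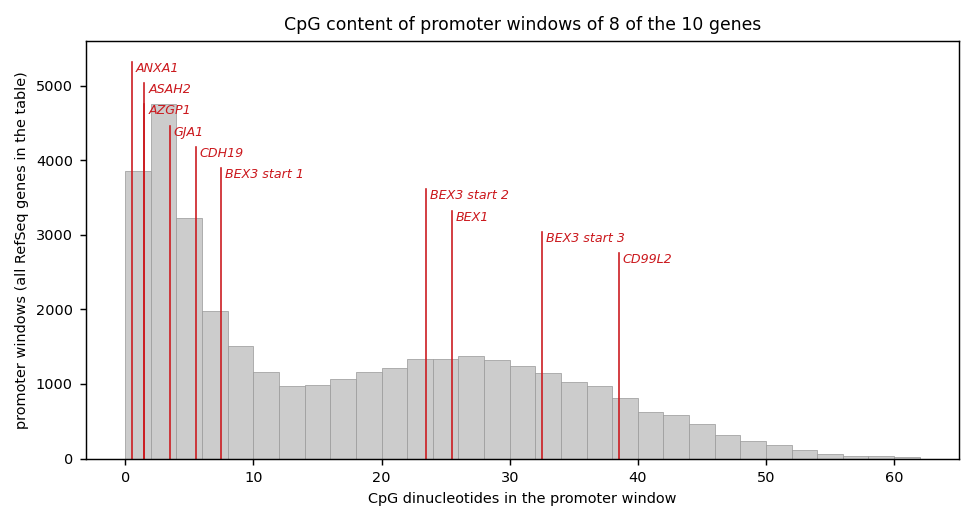
Number of CG dinucleotides in 300-base RefSeq promoter windows. Grey bars count all 35116 windows, and red lines mark the windows of 8 of the 10 genes (3 annotated starts for BEX3). The red lines of ANXA1, ASAH2, AZGP1 and GJA1 stand at 0 to 3 and that of CD99L2 at 38.

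The deposited values are normalized counts, which were whole reads divided by 1 size factor per library. Libraries of the drug experiment held 26038505 to 47397233 reads and those of the INO80 experiment 17093574 to 25369547, so that a level of 3 reads, taken here as the floor, was worth 2.13 to 4.30 and 2.30 to 3.58 normalized counts, for counting error only. The siRNAs lowered their targets, since MCRS1 had 1363 to 1430 normalized counts as group means with NTG and 108 to 114 with siMCRS1, and INO80 had 1264 with NTG, 608 with siINO80#1 and 460 with siINO80#2. All 10 hepatocyte markers examined, ALB and AFP among them, were present in every library. In bulk libraries fewer cells of a kind and less RNA per cell cannot be told apart. Markers of other cells were mixed. Several were absent or nearly so, with KDR (endothelial) and MS4A1 (B cells) at 0 in the drug experiment and THY1 (fibroblast) and CD3E (T cells) at or under the floor in all libraries. Others were present in the drug experiment, namely LYZ at 37061 to 68408 normalized counts, CD68 at 579 to 1597, PECAM1 at 138 to 228, PDGFRB at 80.2 to 203 and COL1A1 at 58.2 to 772, while the pan-leukocyte gene PTPRC had 9.70 to 26.3.

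In cells with NTG, 46 of 14312 tested genes (0.321%) were higher with EPZ-6438 at a limma adjusted p under 0.05 and 9 were lower. All 10 genes were among the 46 in this setting. They were chosen as higher with EPZ-6438 in these same libraries, so their differences are given as descriptions with no test. The rule names no threshold on size, and the 10 genes ran from the largest to the smallest of those 46 differences. CDH19 was at rank 1, GJA1 at 2, ANXA1 at 10, ACSM3 at 15 and CADM1 at 46. Genes entered this fit when their average across the drug libraries reached 10. CDH19 did so because of the EPZ-6438 libraries with NTG, where it averaged 27.4. Its means were 0.956 in DMSO with NTG, 2.91 in DMSO with siMCRS1 and 4.18 in EPZ-6438 with siMCRS1. Its place in this ranking thus depended on the group in which it was high. The median difference of the 10 was 1.11 on the log2(value + 1) scale, and that of all 14312 genes was -0.03. On this scale the change of genes with few reads is understated.

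In cells with NTG, GJA1 and CDH19 were near absent without the drug. GJA1 had 6.70 and 6.68 normalized counts (7 reads each) in the DMSO libraries with NTG and 80.8, 59.0 and 42.1 in the EPZ-6438 libraries with NTG. The lowest EPZ-6438 library was thus far above both DMSO libraries, though the drug libraries themselves spread from 42.1 to 80.8. Over summed reads (198 against 14), the ratio was 9.0 with a 95% counting interval of 5.24 to 16.8. CDH19 had 0.957 and 0.954 normalized counts with DMSO, 1 read in each library and under the floor, and 32.3, 12.1 and 37.8 with EPZ-6438. Summed over libraries this was 83 reads against 2, a ratio of 26.4 with a counting interval of 7.09 to 222, so its size was poorly fixed. Both intervals cover counting error only, while the replicates differed by more than that. They also take no account of the choice of the genes on these same libraries, so they are no test of a difference.

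ANXA1 and ACSM3 were expressed without the drug and differed by more than 3-fold. ANXA1 had 202 and 219 normalized counts with DMSO and 1461, 639 and 970.3 with EPZ-6438, a mean of 1023 ± 414 (SD, n = 3). Its ratio of means was 4.87, and the first EPZ-6438 library held the most and the second the least. ACSM3 had 1274 and 1223 with DMSO and 4737, 3863 and 5070.3 with EPZ-6438. Its group means were 1248 ± 36.6 (SD, n = 2) and 4557 ± 623 (SD, n = 3), a ratio of 3.65.

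The other 6 genes had smaller differences. BEX1 had 369.6 and 366 normalized counts with DMSO and 892, 791 and 841 with EPZ-6438. BEX3 had 699.9 and 854 with DMSO and 1423, 1379 and 1448 with EPZ-6438. The pair of X-linked relatives therefore had ratios of 2.29 and 1.82. AZGP1 had 350.4 and 488 with DMSO and 819, 818 and 917 with EPZ-6438, a ratio of 2.03. ASAH2 had 323 and 324 with DMSO and 558, 541 and 607 with EPZ-6438, a ratio of 1.76. Each of these genes had every drug library above both DMSO libraries, a separation that the choice of the genes makes likely. CD99L2 had 281 and 309 with DMSO and 556, 486 and 549.8 with EPZ-6438. CADM1 had 3165 and 3292 with DMSO and 4389, 4497 and 4701 with EPZ-6438, a ratio of 1.40 and the smallest of the 10.

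**Figure D2:**
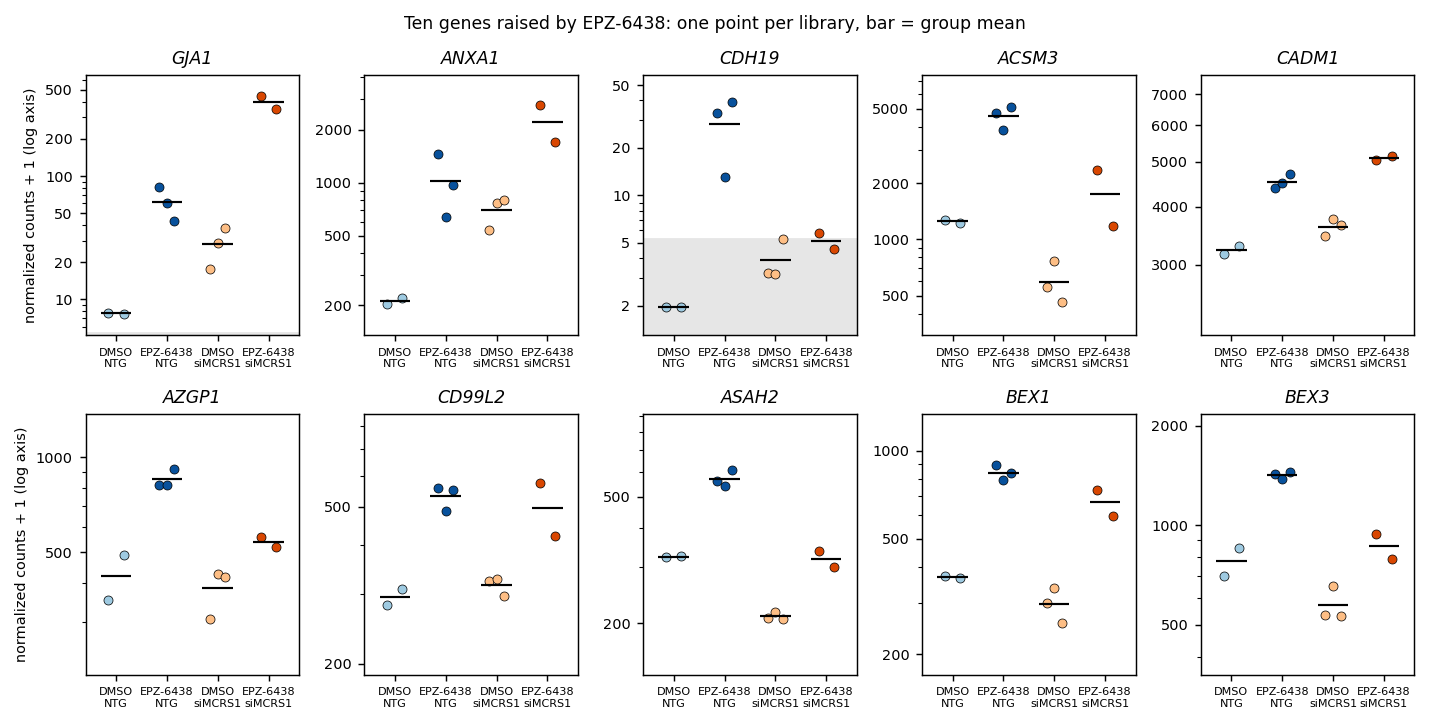
Normalized counts + 1 of the 10 genes in the drug experiment, on a log axis that differs between panels. Each point is 1 library, the black bar is the group mean, and grey shading marks values at or under 3 reads in the shallowest library. The dark blue points (EPZ-6438 with NTG) stand above the light blue ones (DMSO with NTG) in every panel, and CDH19 with siMCRS1 stays at 4.80 or less.

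The rule that chose the genes names only cells with NTG, so the same drug comparison was tested in cells with siMCRS1. Earlier results of these data were known when the genes were chosen, so the test may not be fully independent of the choice. Of 14030 genes tested, 2 (0.0143%) were higher and 1 (0.00713%) lower with EPZ-6438 at a limma adjusted p under 0.05. GJA1 was 1 of the 2 that rose, and no other of the 10 genes passed. The other 2 genes, named after their values were seen, were PLA2G2A, a secreted phospholipase, at 74.2 ± 12.9 with DMSO (SD, n = 3) and 461 ± 5.30 with EPZ-6438 (SD, n = 2), and the read-through locus SPECC1L-ADORA2A, at 121 ± 74.3 with DMSO (SD, n = 3) and 0 in both EPZ-6438 libraries.

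GJA1 had 16.7, 27.5 and 37.2 normalized counts in DMSO libraries with siMCRS1 and 442 and 348 in EPZ-6438 libraries with siMCRS1. The log2 difference was 3.87 with a standard error of 0.34 and a limma adjusted p of 0.018, and the ratio over summed reads (945 against 66) was 15.1 with a counting interval of 11.7 to 19.7. The call held in 12 of 15 other settings, whose adjusted p ran from 1.6e-26 to 0.21. It was lost without the third DMSO library (adjusted p = 0.15 from limma), without EPZ-6438 library A (0.066) and with limma's variance trend left out (0.21), while the difference stayed between 3.57 and 4.13 in all of them.

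Of the 10 genes, 9 passed the filter on a mean of 10 normalized counts in the siMCRS1 libraries. In each of the 9, both EPZ-6438 libraries were above all 3 DMSO libraries, which 11.8% of all tested genes showed, and each had an unadjusted p under 0.05 with a positive difference, which 4.78% of all tested genes showed. Their median difference was 0.64, and that of all tested genes was -0.02. With DESeq2 on the recovered reads 6 of the 9 passed its adjusted p (GJA1, ANXA1, ACSM3, CADM1, BEX1 and BEX3, among 164 genes in all, with 0.820% of genes called higher), and with edgeR GJA1 alone, among 2 genes. Without EPZ-6438 library B, 4 of the 9 passed (GJA1, ANXA1, ACSM3 and BEX1, among 58 genes), and without library A none did, with 1 gene in all, each time with a lone EPZ-6438 library taken to vary like the DMSO libraries.

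ANXA1 had 535, 768 and 794 normalized counts with DMSO and siMCRS1 and 2758 and 1697 with EPZ-6438 and siMCRS1. The log2 difference was 1.65 (standard error 0.24), and limma's adjusted p of 0.13 did not pass. ACSM3 had 553, 765 and 459.8 with DMSO and 2342 and 1172 with EPZ-6438, with a difference of 1.51 (standard error 0.30). Library A of EPZ-6438 carried more than library B in both genes. BEX1 had 298, 336 and 255 with DMSO and 735 and 596 with EPZ-6438, with a difference of 1.17 (standard error 0.17), close to its 1.19 in cells with NTG.

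The remaining differences in siMCRS1 libraries were small and none passed with limma, although CADM1 and BEX3 passed with DESeq2. CADM1 had 3452, 3760.2 and 3653 normalized counts with DMSO and 5050.3 and 5144 with EPZ-6438, a difference of 0.49 (standard error 0.09) against 0.49 in cells with NTG. CD99L2 differed by 0.64, ASAH2 by 0.60, BEX3 by 0.59 and AZGP1 by 0.51, with limma adjusted p-values of 0.34 to 0.46. CDH19 was the gene that did not pass the filter. It had 2.23, 2.20 and 4.30 normalized counts with DMSO and 4.80 and 3.55 with EPZ-6438, so its groups overlapped. Its 10 reads against 7 gave a ratio of 1.51 with a counting interval of 0.517 to 4.66. Its difference in cells with NTG helped to choose it, and whether the drug's difference depends on the siRNA was not tested.

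**Figure D3:**
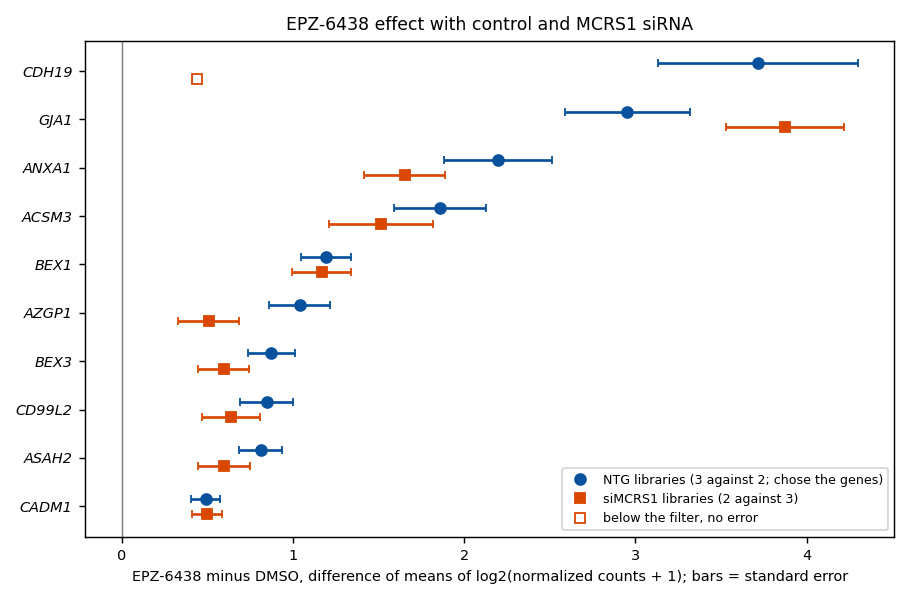
EPZ-6438 minus DMSO for each gene, as the difference of group means of log2(normalized counts + 1), in cells with NTG (circles, the libraries that chose the genes) and with siMCRS1 (squares). Bars are standard errors from limma, and the open square is CDH19, which was below the filter. All points are above 0, from 0.44 for CDH19 with siMCRS1 to 3.87 for GJA1 with siMCRS1.

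The level of the genes in cells with siMCRS1 relative to NTG is also a description, because the NTG libraries chose them. GJA1 was higher with siMCRS1 by 1.80 in DMSO and by 2.72 in EPZ-6438 on the log2 scale, and its 4 groups did not overlap. In order they were DMSO with NTG (6.69 normalized counts as a mean), DMSO with siMCRS1 (27.2), then NTG with EPZ-6438 (60.6) and siMCRS1 with EPZ-6438 (395). ANXA1 followed the same order and was higher with siMCRS1 by 1.71 in DMSO and 1.16 in EPZ-6438, but its DMSO siMCRS1 and EPZ-6438 NTG libraries overlapped. CADM1 had the same order with no overlap, with differences of 0.16 and 0.17 that turned to -0.07 and -0.07 when libraries were rescaled to equal totals and to -0.03 and -0.11 with quantile normalization.

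ACSM3, ASAH2, BEX1 and BEX3 were lower with siMCRS1 under both treatments. ACSM3 was lower by 1.11 in DMSO and 1.45 in EPZ-6438, so that the EPZ-6438 siMCRS1 libraries (2342 and 1172) overlapped those of DMSO with NTG (1274 and 1223). ASAH2 was lower by 0.62 and 0.84, with 207, 216 and 206 normalized counts in DMSO with siMCRS1 and 336 and 300.0 in EPZ-6438 with siMCRS1. BEX1 was lower by 0.32 and 0.34, and BEX3 by 0.44 and 0.72. The sizes depended on scaling, since in DMSO the BEX1 difference was -0.55 rescaled to equal totals and -0.03 with quantile normalization, that of BEX3 -0.68 and -0.29, and that of ASAH2 -0.86 and -0.33, and in EPZ-6438 that of BEX1 was -0.58 and -0.21. BEX3 had 535, 653 and 529 in DMSO with siMCRS1 and 938 and 789 in EPZ-6438 with siMCRS1. These 4 genes were thus highest with EPZ-6438 and NTG, and lowest with DMSO and siMCRS1.

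AZGP1 had 305, 425 and 417 normalized counts in DMSO with siMCRS1 and 558 and 518 in EPZ-6438 with siMCRS1. Its DMSO groups overlapped, and in EPZ-6438 both siMCRS1 libraries were below all 3 NTG libraries, a difference of -0.66. CD99L2 had 323, 326 and 296 in DMSO with siMCRS1 and 573 and 419.8 in EPZ-6438 with siMCRS1, and overlapped NTG under both treatments. CDH19 was higher with siMCRS1 by 0.96 in DMSO, from values at or near the floor, and lower by 2.32 in EPZ-6438. The choice of the genes favours a high level in EPZ-6438 with NTG, and CDH19 entered the fit through that group. As a description, the 10 genes split by their highest group. The highest mean was in EPZ-6438 with siMCRS1 for 3 (GJA1, ANXA1 and CADM1) and in EPZ-6438 with NTG for 7. For CADM1 and CD99L2 this place rested on the scaling, since siMCRS1 against NTG in EPZ-6438 turned to -0.11 with quantile normalization for CADM1 (-0.07 rescaled to equal totals) and to 0.14 with quantile normalization for CD99L2.

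The 7 fibroblast markers summed to 347 to 368 normalized counts with NTG in DMSO and 259 to 408 with NTG in EPZ-6438, and to 563 to 908 with siMCRS1 in DMSO and 843 to 892 with siMCRS1 in EPZ-6438, led by COL1A1. Their sum therefore moved with siMCRS1, as GJA1 and ANXA1 did, and its part in those differences was not tested. In the INO80 experiment the sum was 259 to 287 with NTG, 464 to 487 with siINO80#1 and 298 to 322 with siINO80#2. There ANXA1 was lower with both siRNAs. Between EPZ-6438 and DMSO the sums overlapped with either siRNA, but single markers moved apart in both directions. With NTG, COL3A1 ranged over 6.68 to 7.66 normalized counts without the drug and 37.7 to 77.8 with it, PDGFRB 80.2 to 108 and 130.4 to 199, and LUM 0 to 0.957 and 5.26 to 8.62, while COL1A1 had 223 to 270.1 and 58.2 to 158. DCN was also lower there, with 5.74 to 9.54 without the drug and 2.13 to 4.21 with it. COL1A2, near the floor, had 0.957 to 1.91 and 2.10 to 2.84. The endothelial marker CDH5 had 10.5 to 12.4 and 24.2 to 67.3. With siMCRS1, COL3A1 averaged 4.04 normalized counts in the DMSO libraries and 42.7 in those given EPZ-6438. COL1A1 averaged 623 and 626 with siMCRS1, and its groups overlapped, as did those of COL1A2, PDGFRB, DCN, LUM and CDH5. Some hepatocyte markers moved as well. With NTG, APOA1 had 16312 to 23715 normalized counts without the drug and 23860 to 39197 with it. FGB had 6153 to 10045 and 11784 to 16555, SERPINA1 82897 to 102485 and 124171 to 165464, and TF 32968 to 50585 and 53296 to 57007. The other hepatocyte markers overlapped there. With siMCRS1, APOA1 and FGB were again higher with the drug without overlap, and the others overlapped. The part of all these markers in the drug differences of the 10 genes was not tested.

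The INO80 experiment had no drug, and its table has its own scaling, so levels were compared within it. There 8 of the 10 genes passed the filter, and 6 of the 8 changed with each INO80 siRNA. AZGP1 and CD99L2 rose and ANXA1, ACSM3, ASAH2 and CADM1 fell, while BEX1 and BEX3 did not pass. INO80 siRNAs changed many genes, with 20.7% of 14034 tested genes higher and 20.8% lower for siINO80#1, and 26.6% higher and 28.4% lower for siINO80#2 at a limma adjusted p under 0.05. Both comparisons share the NTG libraries. Counts of 2 higher and 4 lower among 8 are read against those shares.

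ACSM3 had 1111, 1079 and 1467 normalized counts with NTG, 639, 493 and 617 with siINO80#1, and 333, 259.6 and 353 with siINO80#2. The 3 groups did not overlap. It fell by 1.06 with siINO80#1 (standard error 0.15, limma adjusted p = 0.00035) and by 1.95 with siINO80#2 (adjusted p = 3.2e-06). ANXA1 had 61.3, 82.1 and 49.0 with NTG, 28.6, 25.8 and 20.1 with siINO80#1, and 20.2, 16.8 and 6.61 with siINO80#2. It fell by 1.32 with siINO80#1 (standard error 0.37, limma adjusted p = 0.016), a call lost without NTG library B (adjusted p = 0.065) or siINO80#1 library C (0.058), among a range of 0.0015 to 0.065 in 16 settings. With siINO80#2 it fell by 2.16 (adjusted p = 0.00058 from limma), or 47 reads over 3 libraries against 186.

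ASAH2 had 433, 355 and 498 normalized counts with NTG, 228, 138 and 252 with siINO80#1, and 131, 188 and 239 with siINO80#2. It fell by 1.09 (limma adjusted p = 0.0060) and by 1.23 (adjusted p = 0.0020), and the 2 siRNA groups overlapped. CADM1 had 1922, 1821 and 1852 with NTG, 1554, 1237 and 1193 with siINO80#1, and 1028, 1081 and 1025 with siINO80#2. It fell by 0.50 (limma adjusted p = 0.0017) and by 0.84 (adjusted p = 3.2e-05). All 4 genes that fell had every siRNA library below every NTG library, as did 29.5% of all tested genes for siINO80#1 and 31.4% for siINO80#2.

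AZGP1 had 506, 427 and 539.5 normalized counts with NTG, 855, 682 and 819 with siINO80#1, and 955, 799 and 904 with siINO80#2. It rose by 0.68 (limma adjusted p = 0.00098) and by 0.85 (adjusted p = 0.00012). CD99L2 had 146, 157 and 176 with NTG, 204, 205 and 239 with siINO80#1, and 287, 277 and 264 with siINO80#2. It rose by 0.43 (limma adjusted p = 0.0099) and by 0.79 (adjusted p = 0.00015). Both genes had every siRNA library above every NTG library, as did 27.8% of all tested genes for siINO80#1 and 30.0% for siINO80#2. When libraries were rescaled to equal totals the median of all genes moved by -0.11 for siINO80#2 and the share of calls that were higher went from 49.9% to 39.8% for siINO80#1 and from 48.3% to 38.7% for siINO80#2, and these 6 genes kept their calls.

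BEX1 had 231, 244 and 254 normalized counts with NTG, 228, 211 and 242 with siINO80#1, and 214, 204 and 253 with siINO80#2, with differences of -0.10 and -0.13 (standard error 0.11). BEX3 had 405, 459.9 and 397 with NTG, 379, 455 and 358 with siINO80#1, and 429.7, 461 and 440.2 with siINO80#2, with differences of -0.09 and 0.08 (standard error 0.11). Their groups overlapped. GJA1 and CDH19 were at or near the floor here and were not tested. GJA1 had 0 to 5.58 normalized counts over the 9 libraries and CDH19 had 0 to 7.66, so a loss could not have been seen at this depth.

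Between the active siRNAs, with no NTG library in the comparison, 9.48% of tested genes were higher and 12.6% lower with siINO80#2 than with siINO80#1. Of the 8 genes, ACSM3 was lower by 0.89 (standard error 0.15, limma adjusted p = 0.0030) and CADM1 by 0.34 (standard error 0.09, adjusted p = 0.028), and CD99L2 was higher by 0.36 (standard error 0.11, adjusted p = 0.044). INO80 itself was at 608 normalized counts with siINO80#1 and 460 with siINO80#2. The other 5 genes did not pass.

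**Figure D4:**
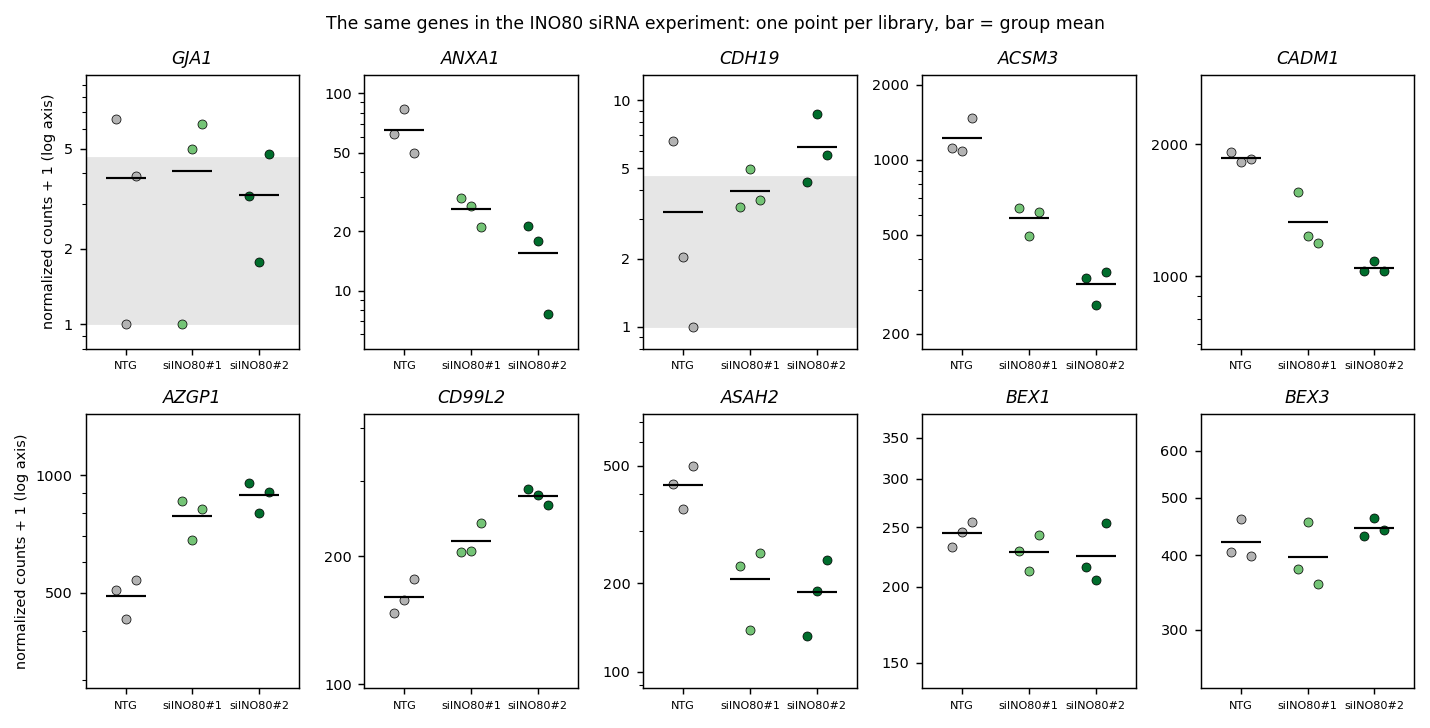
Normalized counts + 1 of the same 10 genes in the INO80 experiment, on a log axis that differs between panels. Each point is 1 library, the black bar is the group mean, and grey shading marks values at or under 3 reads in the shallowest library. ACSM3, ANXA1, ASAH2 and CADM1 stand lower and AZGP1 and CD99L2 higher with either INO80 siRNA than with NTG, and GJA1 and CDH19 lie around the shaded floor.

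Set beside the drug experiment, ACSM3, ANXA1, ASAH2 and CADM1 were higher with EPZ-6438 and lower with both INO80 siRNAs, and AZGP1 and CD99L2 were higher in each. With siMCRS1 in DMSO, ACSM3 and ASAH2 were lower, as they were with the INO80 siRNAs. ACSM3 was lower by 1.11 with siMCRS1, by 1.06 with siINO80#1 and by 1.95 with siINO80#2. ANXA1 was higher with siMCRS1 by 1.71 and lower with the INO80 siRNAs. The siMCRS1 differences use the NTG libraries that chose the genes. No test was made across the tables.

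Relatives of the 10 genes were listed from 9 families, 94 genes in all, to see how the rest of each family stood. With NTG 50 of them were tested, and none passed the adjusted p of limma or edgeR, with 10 higher and none lower at an unadjusted p under 0.05, where 8.55% of all tested genes were higher and 8.52% lower. With DESeq2, which called 3.03% of all genes higher and 2.01% lower, CDH16, ACSM2B, NECTIN4 and FCGRT passed as higher. With siMCRS1 48 were tested, none passed with limma or edgeR, 6 were higher and 2 lower at an unadjusted p under 0.05 (4.78% and 4.06% of all tested genes), and CDH17 passed as higher with DESeq2 (0.820% of all genes). The median difference of the relatives was 0.23 with NTG and 0.12 with siMCRS1, against -0.03 and -0.02 over all tested genes.

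The NTG libraries chose the 10 genes, so a gap between them and their relatives there was set by the choice. Among connexins, the liver connexin GJB1 had a difference of 0.49 (standard error 0.32) with NTG against 2.95 for GJA1. With siMCRS1 these differences were 0.46 (standard error 0.34) and 3.87. Among annexins, the 9 tested relatives had a median of 0.09 with NTG against 2.20 for ANXA1, and of -0.002 with siMCRS1 against 1.65. The medium-chain acyl-CoA synthetases had a median of 0.66 with NTG over 5 tested relatives, of which ACSM2B differed by 0.83 (standard error 0.26), against 1.86 for ACSM3. With siMCRS1 their median was 0.68 over 3 tested relatives, against 1.51 for ACSM3. With each INO80 siRNA, 4 of 5 tested synthetases and 6 of 9 tested annexins were called lower, as ACSM3 and ANXA1 were. Of all tested genes, 20.8% were lower with siINO80#1 and 28.4% with siINO80#2. Among cadherins, CDH16 had 72.2 ± 18.4 normalized counts with DMSO and NTG (SD, n = 2) and 172 ± 26.4 with EPZ-6438 and NTG (SD, n = 3), and CDH1, the epithelial cadherin, differed by 0.63 (standard error 0.45). The CADM and nectin relatives had a median of 0.05 with NTG over 5 tested, and 4 of the 5 rose with each INO80 siRNA, the direction opposite to CADM1. Of all tested genes, 20.7% rose with siINO80#1 and 26.6% with siINO80#2. Over all 9 families, 7 of 49 tested relatives were higher and 17 lower with siINO80#1, and 10 and 19 with siINO80#2. BEX2, the closest relative of BEX1, was below the filter, with 3.34 ± 3.37 normalized counts with DMSO and NTG (SD, n = 2) and 14.4 ± 4.68 with EPZ-6438 and NTG (SD, n = 3).

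Subunits and partners of PRC2, the target complex, were not called with either siRNA by limma or edgeR. Of 13 tested, 3 were lower and none higher at an unadjusted p under 0.05 with NTG, none with siMCRS1, and RBBP4 passed as lower with NTG by DESeq2. The shares of all genes at these thresholds are those given for the relatives. EZH2, the target of the drug, had means of 2010 normalized counts with DMSO and 1775 with EPZ-6438 in cells with NTG, a difference of -0.18 (standard error 0.11), and its paralog EZH1 had 539.5 and 538.

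**Figure D5:**
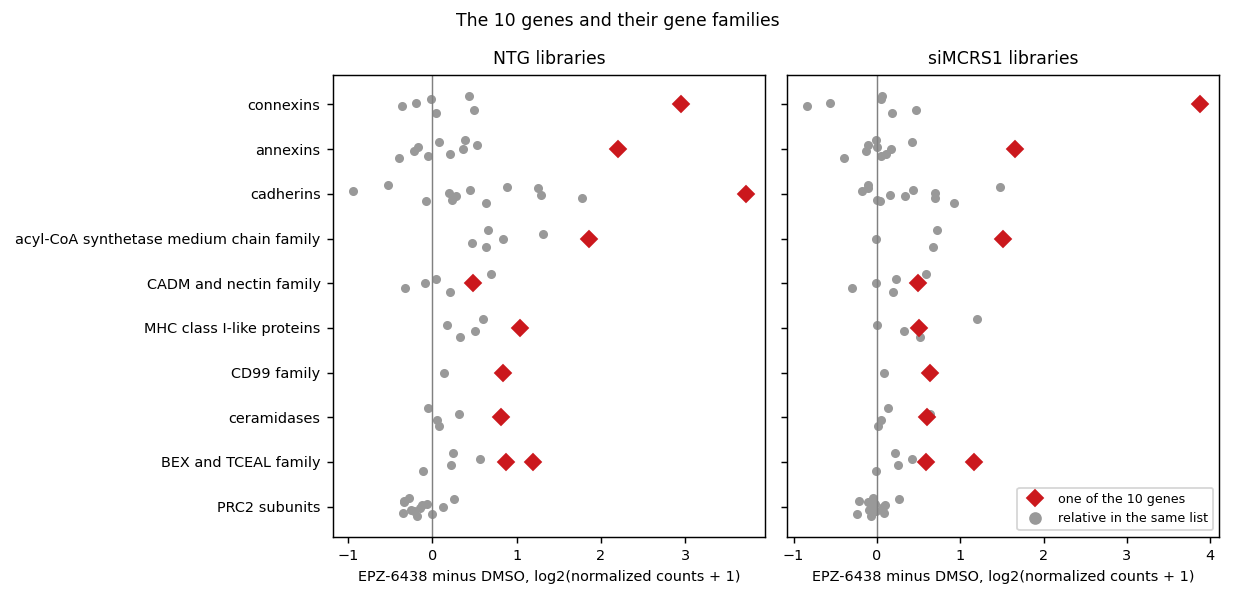
EPZ-6438 minus DMSO, as the difference of group means of log2(normalized counts + 1), for the 10 genes (red diamonds), the tested relatives of their 9 families and the PRC2 subunits (grey points), with NTG (left) and siMCRS1 (right). In the NTG panel, where the 10 genes were chosen, the relatives centre on 0.23, and the PRC2 subunits on -0.18.

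Some of the values could hold reads of near copies, since the counts come from a pseudoaligner and whether strand was used is not given. Of the 31-base words in the annotated transcripts of ASAH2, 75.1% also occur in other genes, mainly ASAH2B and ASAH2C, so its level is uncertain. ASAH2B had means of 504 normalized counts with DMSO and 524 with EPZ-6438 in cells with NTG (difference 0.06, standard error 0.11). The share was 13.6% for BEX1 (with BEX2), 13.2% for AZGP1 (with AZGP1P1), 11.6% for GJA1 (with GJA1P1) and 3.26% for ACSM3, under 0.25% for ANXA1, CDH19, CADM1 and CD99L2, and 0 for BEX3. ACSM3 overlaps ACSM1, THUMPD1 and ERI2 on the other strand, which differed by 0.64, -0.28 and -0.15 with EPZ-6438 in cells with NTG, none of them passing.

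The 10 genes lie on 8 chromosomes, with BEX1, BEX3 and CD99L2 on the X chromosome. BEX1 (chrX:103062651-103064171) and BEX3 (chrX:103376323-103378164) are in the same gene cluster of GRCh38.p14. The 2 annotated genes on each side of each gene with a row in the table made 40 neighbours, of which 16 were tested. None passed with limma, edgeR or DESeq2 with either siRNA, and at an unadjusted p under 0.05 there were 4 higher and 1 lower with NTG and 1 higher with siMCRS1, against the same shares of all genes. Of the tested neighbours, the largest differences with NTG were beside CDH19 (chr18:66501083-66604090). CDH7, a cadherin, differed by 1.29 (standard error 0.46) with NTG and 0.16 with siMCRS1, and DSEL by 0.98 (standard error 0.37) and 1.01. TCEAL9, beside BEX3, differed by 0.24 and 0.22. GJC3, a connexin beside AZGP1 that was below the filter, had means of 8.60 normalized counts with DMSO and 23.2 with EPZ-6438 in cells with NTG, and of 2.06 and 1.69 with siMCRS1.

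The genes most like the 10 in their profile over the 10 drug libraries were CSRP2 (r = 0.98), C2orf88 (0.96), GLUL (0.96), SCNN1A (0.96) and L3MBTL3 (0.96), by Pearson's r with the mean standardized profile of the 10 genes among 11889 candidates. The libraries share groups and include the NTG libraries that chose the 10 genes, so the choice favours a high r with other genes raised there. The profile also includes CDH19, which entered through EPZ-6438 with NTG. The r values are therefore a description only. SCNN1A, a subunit of the epithelial sodium channel, had means of 127 normalized counts with NTG in DMSO and 389 with NTG in EPZ-6438, and of 105 and 320.4 with siMCRS1 in the same treatments. CSRP2, a LIM-domain protein, had 88.9, 215, 102 and 204 in the same order. Within the 10, CD99L2 (r = 0.97) and BEX1 (0.96) lay closest to the mean profile of the others, and GJA1 (0.61) and ANXA1 (0.61) farthest.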

How the data were processed

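The 10 genes and the lists of relatives, neighbours and markers were chosen with earlier results of these data known. The authors deposited 2 tables of normalized counts, a never-negative signal in which 1 size factor per library divides the counts. Submitters' processing notes name kallisto, DESeq2 and GRCh38, and versions and annotation are not given in the sources used here. Recovered values were whole reads for 100% of entries (tolerance 0.01). Each of the 17 replicate pairs differed beyond counting noise (chi-square over its degrees of freedom, 9.45 to 121). The published paper does not describe these libraries.

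Values were tested as log2(value + 1) with limma 3.58.1 (R 4.3.3, eBayes with a trend, Benjamini-Hochberg adjusted p under 0.05 over all tested genes) for genes with a mean of at least 10. The fit for EPZ-6438 in siMCRS1 libraries used those libraries alone, and the other fits used all groups of a table. Named genes were the 10, relatives past a threshold or closest to one of them, 2 neighbours on each side, and the 5 most similar profiles with a mean of at least 50. Alternatives, chosen beforehand except 2 scalings of siMCRS1 against NTG, were pseudocounts of 0.1 and 5, filters, rescaling to totals, quantile normalization, edgeR 4.0.16 and DESeq2 1.42.0 on recovered reads, other sample sets, each library left out and a replicate block. Fits were tested on simulated data with 200 changed genes. Counting intervals are exact 95% intervals and, like floors, cover counting error only. Shared words came from GENCODE transcripts mapped to GRCh37, positions and promoters from RefSeq GRCh38.p14. Python 3.11.15, numpy 2.4.6, pandas 2.3.3, scipy 1.17.1 and matplotlib 3.10.9 were used.

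Deviations of libraries with the same letter in the INO80 experiment correlated weakly, at 0.10 on average against -0.05 for the others. Letters were left out of the main fits, and a fit with the letter as a replicate block is given below.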

Additional observations from a re-analysis of the deposited data

Results flagged for a closer look

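Of the 10 genes, 8 were tested between the INO80 siRNAs, and 3 differed by limma, with no NTG library in the comparison. Of all tested genes, 9.48% were higher and 12.6% lower with siINO80#2 than with siINO80#1. For siINO80#2 minus siINO80#1, the log2 difference of ACSM3 was -0.89 (315 ± 49.3 normalized counts with siINO80#2 against 583 ± 79.0 with siINO80#1, SD, n = 3 each), and this call held in all 17 other settings. That of CADM1 was -0.34 (1044 ± 31.4 against 1328 ± 197), a call held in 13 of 17 settings, and that of CD99L2 was 0.36 (276 ± 11.9 against 216 ± 19.8), held in 10 of 17.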

How the results depend on the processing

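The count of genes called for EPZ-6438 in NTG libraries (55) was 721 with DESeq2, 128 with only the groups compared in the fit, 85 with quantile normalization, 20 without a filter, 19 without a variance trend, and 2 to 22 with 1 library left out. In siMCRS1 libraries (3 genes, 1 of the 10) it was 164 and 6 of the 10 with DESeq2, 13 and 2 with all 4 groups in the fit, 0 and 0 without a trend (1140 genes at an unadjusted p under 0.05), and 0 to 58 and 0 to 4 with 1 library left out. The other settings kept these counts within 1.5 times. Between the INO80 siRNAs, the 2 of the 10 called lower became 1 without a trend or with only the groups compared (1 to 2 with 1 library left out), and the 1 called higher became 0 without a filter, with only the groups compared or rescaled to totals (0 to 1 with 1 library left out). All genes called there ran from 1948 to 3481 with 1 library left out. The cause of these shifts was not tested beyond the fewer samples or other variance model that each setting uses.

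Small differences changed sign. BEX3 for siINO80#2 against NTG was -0.030 rescaled to totals. Between the INO80 siRNAs BEX1 was 0.0067 with quantile normalization and -0.12 to 0.039 with 1 library left out (positive without siINO80#1 C, siINO80#2 A or siINO80#2 B), and ASAH2 was -0.41 to 0.088 (positive without siINO80#1 C or siINO80#2 A). For siMCRS1 against NTG in DMSO, CADM1 was -0.033 with quantile normalization and -0.070 rescaled to totals, AZGP1 0.11 with quantile normalization and CD99L2 -0.14 rescaled to totals. In EPZ-6438 CADM1 was -0.11 and -0.068 under the same settings, and CD99L2 0.14 with quantile normalization.

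With the replicate letter as a replicate block in the INO80 fits, 6327, 8127 and 3590 genes were called against 5833, 7725 and 3096 without it, and none of the calls on the 10 genes changed. Deviations from the group means correlated at 0.10 on average over 9 same-letter pairs (-0.08 to 0.26) and at -0.05 over the others. No paired fit was run in the drug experiment, since the numbers in its column names are not those of the labels, and the siMCRS1 groups share no number. GJA1 and CDH19 in the INO80 table and CDH19 in siMCRS1 libraries were limited by depth.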
